A study of Mus musculus with 18 samples.

Results

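The genes described here are 10 textbook targets of the transcription factor SRF and of the coactivator YAP: Ctgf, Cyr61, Ankrd1, Amotl2, Vcl, Tpm1, Acta2, Tagln, Myl9 and Cnn1. They were taken by name from 20295 genes in the count table, and all 10 were among the 12156 genes that passed the filter on low counts. Expression was measured by RNA-seq in BAT-LgT cells, a single line of mouse brown preadipocytes immortalised with SV40 large T antigen, after in vitro differentiation to brown adipocytes. At day 7, the cells received Vehicle (DMSO), 100 nM isoproterenol (ISO), which activates all β-adrenergic receptors, or SR-3420, a ligand of ABHD5 that activates the lipase ATGL, for 3 h, and the same 3 treatments were repeated after 1 h with inhibitors of ATGL (Atglistatin) and HSL (CAY10499). The 6 groups carry the name of the treatment, preceded by Lipase Inh. where the inhibitors were given, and held 3 samples each from independent experiments on this line. The labels give 10 µM as the dose of SR-3420, while the text of the study gives another dose, and the difference was not settled. The comparisons ask how a set of cytoskeletal and growth genes responded to β-adrenergic stimulation, to lipolysis without a β-adrenergic signal, and to ISO or SR-3420 when lipolysis was blocked.

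SRF binds CArG boxes and is switched on at cytoskeletal genes by the MRTF coactivators (Mkl1, Mkl2), which are held back by free actin monomers and released when actin polymerises. YAP and its relative TAZ (Wwtr1) act through the TEAD factors and are kept out of the nucleus when the Hippo kinases LATS phosphorylate them. Many genes, among them Ctgf, Cyr61 and Vcl, are reached by both routes, and cAMP with its kinase PKA is known to activate LATS. In adipocytes both routes are known for acting against differentiation.

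Total counts lay between 10310447 and 21205032 in 17 libraries, whereas Lipase Inh. + SR-3420 replicate 2 held 4263755 and stood apart. In that library Lars2, a mitochondrial tRNA synthetase gene, took 18.3% of the counts (exact binomial 95% interval from 18.3 to 18.38%, which covers counting error only), against 0.0397 to 0.121% in the other 17. The comparisons with Lipase Inh. + SR-3420 are given with and without this library. The summed level of 10 brown adipocyte markers was 13600 to 18900 CPM (counts relative to library size) in every library, against 214 to 374 CPM for 8 preadipocyte and fibroblast markers, 69.7 to 119 CPM for 9 smooth muscle and pericyte markers, at most 6.13 CPM for 6 skeletal muscle markers, at most 6.30 CPM for 4 immune markers and at most 0.631 CPM for 4 endothelial markers. Acta2, Tagln, Myl9 and Cnn1 are themselves smooth muscle genes, and for bulk samples such as these fewer cells of a type and less RNA per cell cannot be told apart.

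The promoters of 4 of the genes are shown because they carry motifs of the factors that define the set: 250 bases upstream of the start given in the count table, read from the mouse genome build mm9 on the strand of the gene, from 5′ to 3′, with each TEAD motif (GGAATG, or CATTCC on the other strand) or CArG box in capitals.
Cyr61, chr3:145312950-145313199, minus strand: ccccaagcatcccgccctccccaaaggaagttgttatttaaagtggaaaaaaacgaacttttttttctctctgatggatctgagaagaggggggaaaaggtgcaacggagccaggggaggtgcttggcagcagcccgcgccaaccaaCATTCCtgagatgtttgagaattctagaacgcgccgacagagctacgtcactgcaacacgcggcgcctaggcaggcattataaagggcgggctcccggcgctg
Amotl2, chr9:102619884-102620133, plus strand: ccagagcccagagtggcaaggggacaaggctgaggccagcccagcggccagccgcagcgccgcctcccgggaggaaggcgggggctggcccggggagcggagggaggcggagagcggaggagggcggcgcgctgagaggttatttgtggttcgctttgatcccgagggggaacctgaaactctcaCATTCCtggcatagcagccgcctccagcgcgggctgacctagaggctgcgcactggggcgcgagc
Tagln, chr9:45744142-45744391, minus strand: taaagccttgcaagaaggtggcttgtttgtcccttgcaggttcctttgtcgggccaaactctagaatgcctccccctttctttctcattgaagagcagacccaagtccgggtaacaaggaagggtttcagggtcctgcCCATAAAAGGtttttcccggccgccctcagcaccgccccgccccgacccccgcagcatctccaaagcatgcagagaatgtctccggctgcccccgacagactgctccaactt
Myl9, chr2:156600950-156601199, plus strand: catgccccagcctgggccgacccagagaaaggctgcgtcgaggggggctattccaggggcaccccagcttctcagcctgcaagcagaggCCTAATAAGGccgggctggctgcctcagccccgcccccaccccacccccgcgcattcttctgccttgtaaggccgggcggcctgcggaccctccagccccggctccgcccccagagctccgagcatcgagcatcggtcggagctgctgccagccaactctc
Cyr61 holds 1 TEAD motif, which begins 103 bases before its start, and Amotl2 holds 1 that begins 65 bases before it. The CArG box of Tagln (CCATAAAAGG) begins 112 bases before the start and that of Myl9 (CCTAATAAGG) 161 bases before it. Searched on both strands, the TEAD motif lay in the window of 7 of the 10 genes, among them Ankrd1, Vcl, Tpm1 and Acta2. It lay in 9.83% of the windows of all genes tested. A CArG box was counted only in the strict form CCWWWWWWGG, where W is A or T, and lay in 2 of 10 against 1.16%. Near matches were not counted, such as ccctatatgg and ccttgtttgg in the window of Acta2, which each miss this form by 1 base. No window held the full cAMP response element TGACGTCA (2.84% of the windows tested), and its shorter form TGACG, on either strand, lay in those of Cyr61 and Tpm1 (27.3% of the windows tested, a count that includes the full element). A match to these letters is a description of the sequence, and none was tested for binding.

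Levels are CPM of libraries scaled with TMM factors, which take the bulk of genes as unchanged, and they are listed for replicates 1, 2 and 3 in that order. The secreted matricellular protein CTGF is encoded by Ctgf (chr10:24315248-24318488, plus strand). Its level was 192, 196 and 198 CPM with Vehicle, 241, 246 and 258 with ISO and 301, 325 and 278 with SR-3420. After the inhibitors it was 200, 215 and 192 CPM with Vehicle, 182, 164 and 168 with ISO and 253, 253 and 277 with SR-3420. The order of the group means was SR-3420, Lipase Inh. + SR-3420, ISO, Lipase Inh. + Vehicle, Vehicle and Lipase Inh. + ISO, in which the samples of the second and the third group overlapped, as did those of both Vehicle groups. A lincRNA (Gm15270) overlaps Ctgf on the other strand, and reads of the pair cannot be told apart, since no source used here says whether the counting used strand.

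Cyr61 (chr3:145309935-145312949, minus strand) encodes the matricellular relative of CTGF. Its level was 142, 119 and 143 CPM with Vehicle, 158, 151 and 172 with ISO and 235, 252 and 216 with SR-3420. After the inhibitors these values were 141, 139 and 148 CPM with Vehicle, 112, 108 and 115 with ISO and 178, 159 and 177 with SR-3420. All 3 samples of SR-3420 lay above every other sample, and all 3 of Lipase Inh. + ISO lay below every other sample. Ankrd1 (chr19:36186455-36194334, minus strand), an ankyrin repeat protein of muscle that acts in the nucleus and at the sarcomere, was at 16.7, 15.7 and 17.3 CPM with Vehicle, 14.9, 17.7 and 19.1 with ISO and 20.4, 26.4 and 23.5 with SR-3420. The inhibitor groups were at 14.1, 14.3 and 14.8 CPM with Vehicle, 13.4, 11.3 and 10.9 with ISO and 15.3, 14.4 and 17 with SR-3420. Ankrd1 had the same samples at both ends as Cyr61, at far lower levels.

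Amotl2 (chr9:102620134-102635747, plus strand) encodes an angiomotin that binds YAP and holds it in the cytoplasm, and is itself a YAP target. Its level was 145, 152 and 165 CPM with Vehicle, 229, 235 and 228 with ISO and 287, 266 and 285 with SR-3420. After the inhibitors Amotl2 was at 152, 157 and 160 CPM with Vehicle, 215, 201 and 189 with ISO and 219, 209 and 209 with SR-3420. Every sample with ISO or SR-3420 lay above every sample of both Vehicle groups, and with inhibitors ISO and SR-3420 overlapped. Vcl (chr14:21748655-21852895, plus strand) encodes vinculin, which couples integrins to actin at focal adhesions, and its span overlaps that of Ap3m1 on the other strand. It was at 158, 181 and 186 CPM with Vehicle, 280, 275 and 266 with ISO and 301, 277 and 279 with SR-3420. Vcl with inhibitors was at 200, 190 and 186 CPM with Vehicle, 214, 190 and 188 with ISO and 185, 193 and 198 with SR-3420. The high level of Vcl with ISO and with SR-3420 was therefore seen without inhibitors, whereas the 3 groups with inhibitors overlapped each other.

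The remaining genes encode parts or regulators of the actomyosin apparatus. Tpm1 (chr9:66870400-66897020, minus strand), a tropomyosin that coats actin filaments, was at 121, 119 and 135 CPM with Vehicle, 119, 121 and 128 with ISO and 158, 168 and 154 with SR-3420, and all 9 samples with inhibitors lay between 111 and 125 CPM. The samples of SR-3420 stood apart from the other 15, which overlapped. Acta2 (chr19:34314826-34329863, minus strand), smooth muscle α-actin, was at 63.7, 47.1 and 66.2 CPM with Vehicle, 59, 53.6 and 68.5 with ISO and 75.4, 73.7 and 70.7 with SR-3420, and between 40.7 and 64.9 CPM in the 9 samples with inhibitors. Of the 50-base words of its transcripts 0.404% also occur in Actg1. Replicate 2 was the lowest sample of Acta2 in 5 of the 6 groups.
Tagln (chr9:45737711-45744141, minus strand) encodes the actin-binding protein transgelin and overlaps Pcsk7 on the other strand. Its level was 56.1, 38.3 and 46.3 CPM with Vehicle, 42.0, 42.6 and 51.7 with ISO and 59.1, 61.9 and 62.2 with SR-3420. Tagln with inhibitors was at 36.5, 34.1 and 38.7 CPM with Vehicle, 41.8, 41.9 and 43.3 with ISO and 42.6, 40.8 and 41.6 with SR-3420. The 3 samples of SR-3420 were again the highest of all 18. Myl9 (chr2:156601200-156607393, plus strand), the regulatory light chain of smooth muscle and non-muscle myosin, was at 15.2, 11.7 and 11.1 CPM with Vehicle, 14.6, 13.3 and 14.5 with ISO and 14.6, 17.5 and 14.5 with SR-3420. Myl9 with inhibitors was at 11.2, 8.82 and 9.13 CPM with Vehicle, 12.1, 10.8 and 13.2 with ISO and 10.6, 9.86 and 11.2 with SR-3420. Within the 9 samples without inhibitors, and within the 9 with them, the groups of Myl9 overlapped.

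Cnn1 (chr9:21903697-21913665, plus strand), calponin, which damps the myosin ATPase of smooth muscle, was read from 1 to 26 counts per library, so its values carry a large counting error. It was at 1.2, 1 and 0.882 CPM with Vehicle, 0.902, 0.923 and 0.735 with ISO and 0.955, 1.35 and 1.36 with SR-3420. With inhibitors it was at 0.583, 0.494 and 0.578 CPM with Vehicle, 0.990, 1.46 and 1.32 with ISO and 0.0901, 0.533 and 0.318 with SR-3420. The 3 samples of Lipase Inh. + ISO lay above the other 6 with inhibitors. Per kilobase of counted length, which allows genes to be compared, the mean level with Vehicle was 81.4 ± 1.25 CPM for Ctgf, 73.5 ± 5.08 for Tpm1 and 66.4 ± 6.65 for Cyr61 (SD, n = 3), 36.8 ± 2.4 for Amotl2, 33.5 ± 2.83 for Vcl, 31.4 ± 5.98 for Tagln and 22.9 ± 4.05 for Acta2, and 11.7 ± 2.01 for Myl9, 9.38 ± 0.458 for Ankrd1 and 0.518 ± 0.0809 for Cnn1. Within this order neighbours differed by less than the sum of their SDs for Tpm1 and Cyr61, along Amotl2, Vcl, Tagln and Acta2, and for Myl9 and Ankrd1.

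**Figure D1:**
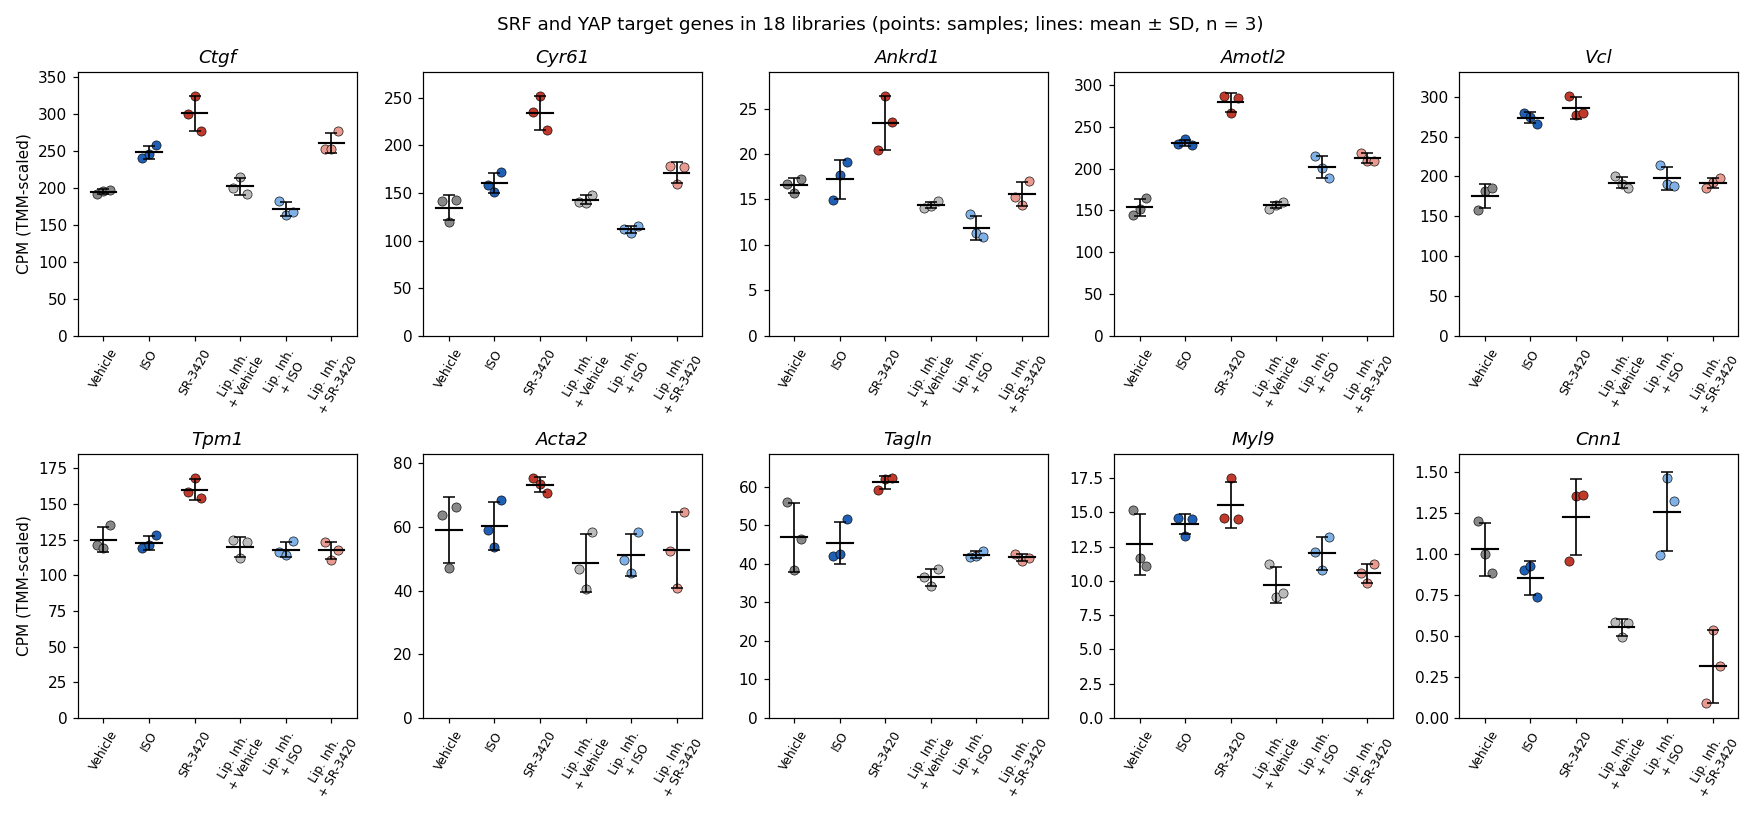
Level of each gene (CPM after TMM scaling, vertical axis from 0) in each of the 18 libraries by group; points are samples, and the lines give the mean ± SD of 3. The SR-3420 samples are the highest of Ctgf (narrowly), Cyr61, Ankrd1, Amotl2, Tpm1, Acta2 and Tagln. Lipase Inh. + ISO is the lowest group of Ctgf, Cyr61 and Ankrd1.

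ISO without inhibitors raised 4 of the 10 genes and lowered none. Fold changes come from 1 edgeR quasi-likelihood fit over all 18 samples, with p-values adjusted by Benjamini-Hochberg over all genes tested, and a gene is said to have risen or fallen at an adjusted p of at most 0.05. Vcl rose 1.56-fold (log2 fold change 0.64 ± 0.07, SE, adjusted p = 7.38e-08) and Amotl2 rose 1.5-fold (0.58 ± 0.06, adjusted p = 9.63e-08). Ctgf rose 1.27-fold (0.34 ± 0.07, adjusted p = 2.04e-04) and Cyr61 1.19-fold (0.25 ± 0.08, adjusted p = 0.00920). The ISO and Vehicle samples of these 4 genes did not overlap. The genes were picked by their p-values on the same samples, so this is no further support. The share of all genes without such overlap was not counted. Among all genes tested, 26.8% rose and 25.0% fell by the same rule. With only 10 genes, counts of 4 higher and 0 lower are not read as a departure from these shares. None of the 10 also reached the absolute log2 fold change of 1 that the study required, which 9.11% of all genes did.

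The other 6 genes did not pass. Their estimates were 0.15 for Myl9 (95% interval from -0.14 to 0.44), 0.05 for Ankrd1 (-0.21 to 0.31), 0.03 for Acta2 (-0.29 to 0.35), -0.02 for Tpm1 (-0.17 to 0.12), -0.05 for Tagln (-0.28 to 0.17) and -0.27 for Cnn1 (-1.01 to 0.47). The median of the 10 genes was 0.10 on the log2 scale, and that of all genes tested -0.02. Cyr61 did not pass without Vehicle replicate 2 (0.17, adjusted p = 0.0739) or without ISO replicate 3 (0.20, adjusted p = 0.0514). The direction of several genes depended on the scaling. With libraries scaled to their total counts alone, which moved the median gene by -0.31, Vcl (0.34, adjusted p = 0.00154) and Amotl2 (0.28, adjusted p = 0.00701) still rose, Ctgf (0.04) and Cyr61 (-0.05) did not, and Tagln (-0.36, adjusted p = 0.00987) and Tpm1 (-0.33, adjusted p = 0.00334) fell. On that scale 2 of the 10 genes rose and 2 fell, against 12.3% of all genes higher and 49.4% lower. The plot of both scalings shows that Tagln and Tpm1 lay near the shifted median gene.

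**Figure D2:**
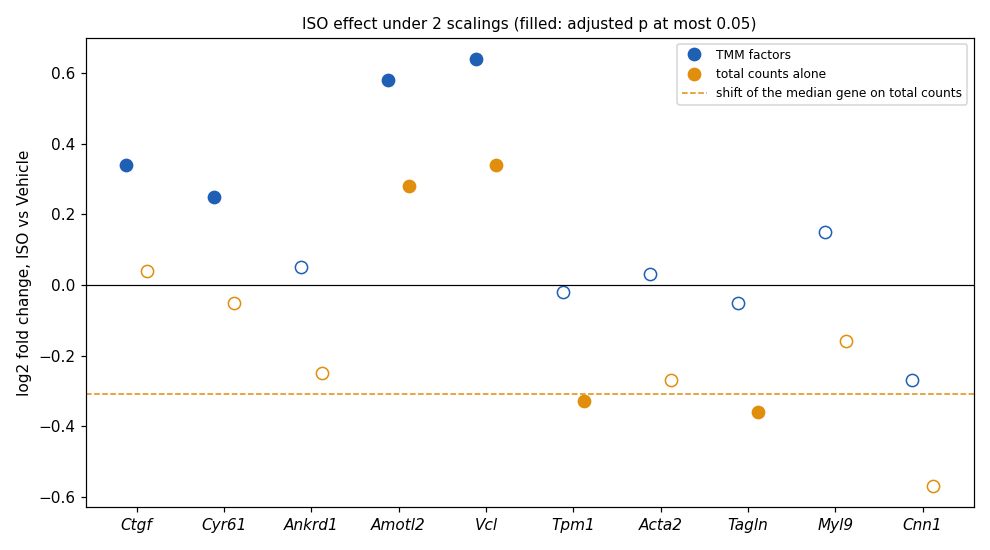
Log2 fold change of ISO against Vehicle (vertical axis) for each gene with TMM factors (blue) and with total counts alone (orange), filled where the adjusted p is at most 0.05; the dashed line is the shift of the median gene, -0.31. Vcl and Amotl2 are filled above 0 on both scales.

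SR-3420 without inhibitors raised 7 of the 10 genes and lowered none, against 26.0% of all genes that rose and 25.4% that fell. The Vehicle samples are those of the comparison with ISO. Amotl2 rose 1.81-fold (log2 fold change 0.86 ± 0.06, SE, adjusted p = 3.83e-10), Cyr61 1.74-fold (0.80 ± 0.08, adjusted p = 2.02e-08), Vcl 1.63-fold (0.70 ± 0.07, adjusted p = 2.63e-08) and Ctgf 1.54-fold (0.63 ± 0.07, adjusted p = 1.19e-07). Ankrd1 rose 1.42-fold (0.50 ± 0.11, adjusted p = 9.4e-04). Of the actomyosin genes, Tagln rose 1.30-fold (0.38 ± 0.10, adjusted p = 0.00399) and Tpm1 1.28-fold (0.36 ± 0.07, adjusted p = 1.57e-04). Acta2 (0.31, 95% interval from 0.00 to 0.63, adjusted p = 0.0779), Myl9 (0.28, 0.00 to 0.56, adjusted p = 0.0775) and Cnn1 (0.24, -0.43 to 0.91, adjusted p = 0.539) did not pass, although all 10 estimates were above 0. Acta2 passed when Vehicle replicate 3 was left out (0.40, adjusted p = 0.0441), and Myl9 when Vehicle replicate 1 was (0.44, adjusted p = 0.0124). Acta2 also passed when the replicate number was added to the fit.

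No gene of the 10 reached a log2 fold change of 1 with SR-3420, which 6.33% of all genes did by the thresholds of the study. The median of the 10 was 0.44, and that of all genes tested -0.02. Scaled to total counts, which moved the median gene by -0.16, Amotl2 (0.70), Cyr61 (0.64), Vcl (0.55), Ctgf (0.47) and Ankrd1 (0.34) still rose, while Tagln (0.22, adjusted p = 0.108) and Tpm1 (0.20, adjusted p = 0.0729) did not pass. Cell type markers were read for the same comparison, in which 26.0% of all genes rose and 25.4% fell. The summed level of the 9 smooth muscle and pericyte markers was 106 to 119 CPM with SR-3420 and 77.0 to 95.6 CPM with Vehicle, carried mostly by Cspg4 (70.6 ± 3.14 and 41.9 ± 7.00 CPM, SD, n = 3), while Myh11 fell (log2 fold change -0.46) and the defining markers Myocd and Rgs5 were at 0.199 and 0.0510 CPM or less. Of the 7 smooth muscle and pericyte markers tested, 2 rose and 2 fell (median -0.12), which is close to the shares of all genes. The 8 preadipocyte and fibroblast markers summed to 324 to 374 CPM with SR-3420 and 234 to 341 CPM with Vehicle, and 4 of them rose and none fell, namely Dlk1 (log2 fold change 0.80), Postn (0.48), Col1a1 (0.43) and Pdgfrb (0.35), with a median of 0.32 over the 8. Of the 10 brown adipocyte markers 5 rose, among them Ucp1 (2.11), and 4 fell, namely Pparg (-0.83), Cfd (-0.76), Adipoq (-0.52) and Pnpla2 (-0.24). The part of these markers in the result was not tested.

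ISO and SR-3420 were also compared directly. By that test 6 of the 10 genes were lower with ISO than with SR-3420 and none was higher, against 13.9% of all genes lower and 15.8% higher. The largest difference was that of Cyr61 (log2 difference, ISO minus SR-3420, -0.55 ± 0.08, SE, adjusted p = 1.28e-05), followed by Ankrd1 (-0.45 ± 0.12, adjusted p = 0.00537), Tagln (-0.43 ± 0.10, adjusted p = 0.00316) and Tpm1 (-0.38 ± 0.07, adjusted p = 2.33e-04), with Ctgf and Amotl2 both at -0.28 (adjusted p = 0.00312 and 0.00203). Vcl, which each treatment raised, did not differ beyond its error (-0.06, 95% interval from -0.21 to 0.09, adjusted p = 0.541). For Acta2 (-0.28, -0.60 to 0.03, adjusted p = 0.150), Cnn1 (-0.51, -1.22 to 0.20, adjusted p = 0.252) and Myl9 (-0.13, -0.42 to 0.15, adjusted p = 0.476) the interval included 0. None of the 10 differed by a log2 value of 1, and 2.04% of all genes did by both thresholds. Total counts alone moved the median gene by -0.15 here, and Acta2 then passed as well (-0.43, adjusted p = 0.0401). With TMM factors, Acta2 passed when the replicate number was added to the fit. Of the markers, the smooth muscle and pericyte list summed to 74.1 to 83.5 CPM in the ISO samples, against 106 to 119 CPM for SR-3420, and 2 of its 7 tested genes were lower with ISO (Cspg4, -0.82, and Smtn, -0.36) and none higher. The preadipocyte and fibroblast list summed to 262 to 341 and 324 to 374 CPM, with 2 of 8 lower (Pdgfrb, -0.67, and Col1a1, -0.37) and none higher, and of the brown adipocyte markers 5 of 10 were higher and none lower. Their part in the result was not tested. ISO was given at one dose and SR-3420 at another, so the comparison holds for these doses.

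The inhibitors alone moved none of the 10 genes past the adjusted threshold by edgeR, where 0.485% of all genes rose and 0.428% fell, and 0.0494% did so with a log2 fold change of at least 1. At an unadjusted p under 0.05, 3 of the 10 lay lower and none higher. These were Cnn1 (log2 fold change -0.90 ± 0.35, SE, adjusted p = 0.313), Myl9 (-0.40 ± 0.14, adjusted p = 0.225) and Tagln (-0.36 ± 0.11, adjusted p = 0.132). Tagln passed by DESeq2 (adjusted p = 0.0459) and without Vehicle replicate 2 (-0.49, adjusted p = 0.0123), the lowest of the Vehicle samples. It also passed when the replicate number was added to the fit. The other estimates were 0.05 for Ctgf (95% interval from -0.09 to 0.20), 0.08 for Cyr61 (-0.08 to 0.25), 0.02 for Amotl2 (-0.12 to 0.16), 0.13 for Vcl (-0.02 to 0.28), -0.06 for Tpm1 (-0.20 to 0.09), -0.20 for Ankrd1 (-0.46 to 0.06) and -0.27 for Acta2 (-0.59 to 0.05). The median of the 10 genes was -0.13, against 0.00 for all genes tested. In every other comparison where none of the 10 genes passed in a direction, the count in that direction was also 0 at an unadjusted p under 0.05 and by DESeq2.

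With the lipases inhibited, ISO lowered 3 of the 10 genes and raised 3. Cyr61 fell 1.28-fold (log2 fold change -0.35 ± 0.08, SE, adjusted p = 4.98e-04), Ctgf fell 1.18-fold (-0.24 ± 0.07, adjusted p = 0.00414) and Ankrd1 fell 1.22-fold (-0.29 ± 0.12, adjusted p = 0.0481). Amotl2 rose 1.29-fold (0.37 ± 0.06, adjusted p = 3.63e-05), Myl9 rose 1.25-fold (0.32 ± 0.14, adjusted p = 0.0496) and Cnn1 rose 2.26-fold (1.17 ± 0.34, adjusted p = 0.00574). Cnn1 was the single gene of the 10 to pass both thresholds of the study, from at most 26 counts per library. Among all genes 29.4% rose, 28.3% fell and 13.1% passed both thresholds, so each of these counts was close to the background. Vcl (0.04, 95% interval from -0.11 to 0.19), Tpm1 (-0.03, -0.17 to 0.12), Acta2 (0.08, -0.24 to 0.40) and Tagln (0.22, -0.02 to 0.45, adjusted p = 0.0871) did not pass. The median of the 10 was 0.06, and that of all genes tested -0.01.

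The values for Ankrd1 and Myl9 lay at the threshold. Ankrd1 did not pass without any one of Lipase Inh. + Vehicle replicates 1, 2 and 3 or Lipase Inh. + ISO replicates 2 and 3 (log2 fold change between -0.30 and -0.22, adjusted p from 0.0763 to 0.197), nor by DESeq2 (adjusted p = 0.0726). Myl9 did not pass without Lipase Inh. + Vehicle replicate 2 or 3 or Lipase Inh. + ISO replicate 1 or 3 (0.24 to 0.33, adjusted p from 0.0844 to 0.203), nor by DESeq2 (adjusted p = 0.0732). Scaling to total counts moved the median gene by -0.23, with 16.2% of all genes higher and 42.1% lower. By it Ctgf (-0.47), Cyr61 (-0.58), Ankrd1 (-0.51) and also Tpm1 (-0.25, adjusted p = 0.0210) fell, Cnn1 rose (0.95, adjusted p = 0.0265), and Amotl2 (0.14, adjusted p = 0.157) and Myl9 (0.09, adjusted p = 0.608) did not pass. The smooth muscle marker Myh11 was at 2.10 ± 0.472 CPM in Lipase Inh. + ISO and 8.06 ± 0.698 CPM in Lipase Inh. + Vehicle (SD, n = 3), and the summed level of that list was 69.7 to 76.2 and 77.5 to 98.0 CPM. Of the 7 markers of that list tested, 2 fell and 0 rose, against 28.3% and 29.4% of all genes. Des was at 11 CPM in Lipase Inh. + ISO and 10.8 CPM in Lipase Inh. + Vehicle. The part of these markers in the result was not tested.

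With the lipases inhibited, SR-3420 raised 3 of the 10 genes and lowered none, against 2.99% of all genes higher, 1.36% lower and 0.296% past both thresholds of the study, which none of the 10 passed. Amotl2 rose 1.36-fold (log2 fold change 0.44 ± 0.06, SE, adjusted p = 1.5e-04), Ctgf 1.29-fold (0.37 ± 0.07, adjusted p = 0.00196) and Cyr61 1.21-fold (0.27 ± 0.08, adjusted p = 0.0492). Without the library of low depth the values were 0.45 (adjusted p = 6.9e-04), 0.39 (adjusted p = 0.00487) and 0.32 (adjusted p = 0.0429), and 2.1% of all genes rose and 0.874% fell. Cyr61 did not pass without any one of Lipase Inh. + Vehicle replicates 1, 2 and 3 or Lipase Inh. + SR-3420 replicates 1 and 3 (0.25 to 0.30, adjusted p from 0.0698 to 0.170). Vcl (0.00, 95% interval from -0.15 to 0.15), Tpm1 (-0.03, -0.18 to 0.13) and Ankrd1 (0.13, -0.14 to 0.40) did not pass, and neither did Tagln (0.19, -0.04 to 0.43), Acta2 (0.15, -0.18 to 0.48), Myl9 (0.14, -0.17 to 0.46) or Cnn1 (-1.05, -2.14 to 0.04). Without the library of low depth none of these 7 passed either, with Ankrd1 at 0.17, Acta2 at 0.27, Tagln at 0.21, Myl9 at 0.17, Tpm1 at 0.01, Vcl at 0.00 and Cnn1 at -1.29. The median of the 10 was 0.15 (0.19 without that library), and that of all genes tested 0.00. When total counts set the scale, which moved the median gene by -0.10, Amotl2 rose (0.33, adjusted p = 0.0293), and Ctgf (0.26, adjusted p = 0.126) and Cyr61 (0.16, adjusted p = 0.404) did not pass. That scale counts Lars2, and on total counts without it, a setting chosen after seeing the data, Amotl2 (0.42, adjusted p = 2.43e-04) and Ctgf (0.34, adjusted p = 0.00326) rose and Cyr61 did not pass (0.24, adjusted p = 0.0817).

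**Figure D3:**
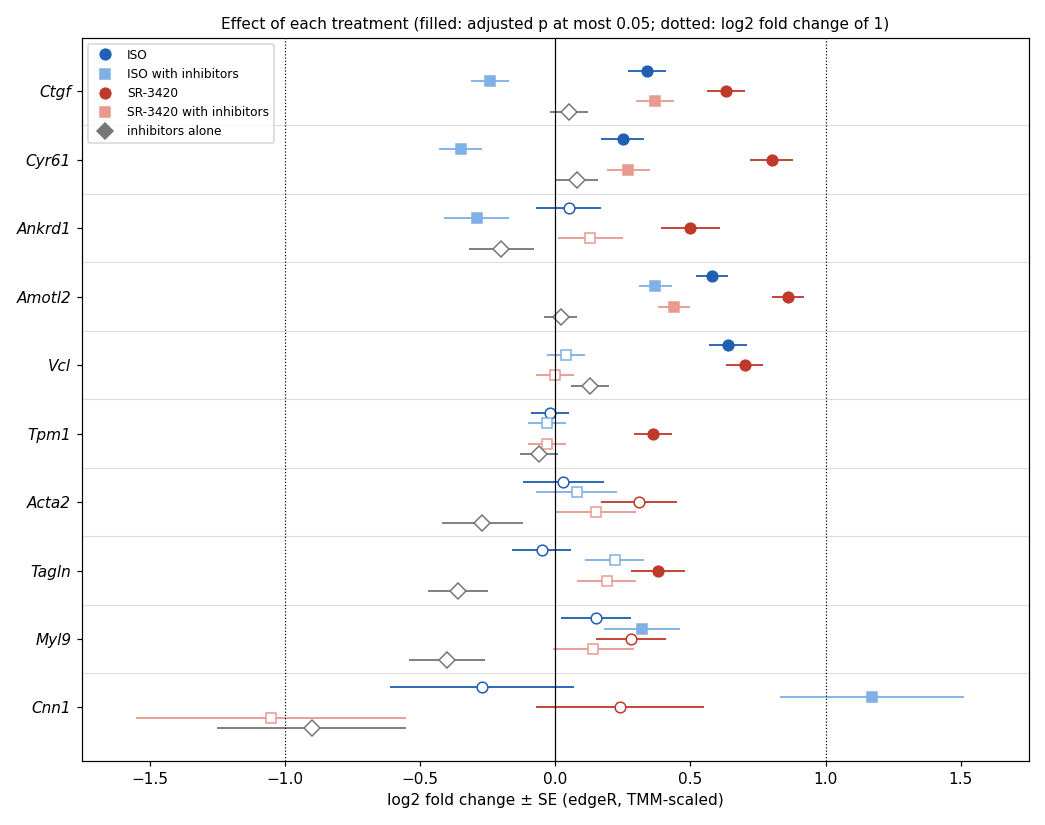
Log2 fold change ± SE (horizontal axis) of each gene with ISO or SR-3420 against Vehicle, with the same treatments after lipase inhibitors, and with the inhibitors alone; filled symbols passed at an adjusted p of at most 0.05, and dotted lines mark a log2 fold change of 1. Ctgf, Cyr61 and Ankrd1 lie below 0 for ISO with inhibitors and above 0 for SR-3420, and only Cnn1 passes beyond 1.

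Whether the inhibitors altered each response was tested with an interaction, in which the effect against Vehicle was subtracted from that against Lipase Inh. + Vehicle. For ISO, 3 of the 10 genes had a lower effect with inhibitors and 1 a higher one, against 16.6% and 14.9% of all genes. The interaction was -0.60 ± 0.11 for Cyr61 (log2, SE, adjusted p = 1.91e-04), -0.60 ± 0.10 for Vcl (adjusted p = 5.05e-05) and -0.59 ± 0.10 for Ctgf (adjusted p = 6e-05). With TMM scaling the effect of ISO on Ctgf and Cyr61 changed sign, and that on Vcl went from 0.64 to 0.04. On total counts alone the interactions of Ctgf (-0.51), Cyr61 (-0.52) and Vcl (-0.52) still passed, but the effect of ISO on Cyr61 went from -0.05 to -0.58 and that on Ctgf from 0.04, which did not pass, to -0.47. Amotl2 (-0.22, 95% interval from -0.41 to -0.02, adjusted p = 0.0701) did not pass over all libraries, but passed without Vehicle replicate 3 (-0.26, adjusted p = 0.0317) or Lipase Inh. + ISO replicate 1 (-0.26, adjusted p = 0.0376). Ankrd1 (-0.34, adjusted p = 0.136), Tpm1 (0.00, -0.21 to 0.21), Acta2 (0.05, -0.41 to 0.50) and Myl9 (0.17, -0.24 to 0.59) did not pass, nor did Tagln (0.27, adjusted p = 0.177), which passed without Vehicle replicate 2 (0.40, adjusted p = 0.0273). The median of the 10 genes was -0.11, and that of all genes tested 0.01.

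Cnn1 was the single gene with a higher ISO effect with inhibitors (1.44 ± 0.48, adjusted p = 0.0262) and the single one past both thresholds, which 6.89% of all genes passed. This value did not pass without Vehicle replicate 1, ISO replicate 3, Lipase Inh. + Vehicle replicate 2 or Lipase Inh. + ISO replicate 2 or 3 (1.31 to 1.4, adjusted p from 0.0508 to 0.0729), nor by DESeq2 (adjusted p = 0.0904).

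For SR-3420, 5 of the 10 genes had a lower effect with inhibitors and none a higher one, against 14.8% and 12.5% of all genes, and all 10 estimates lay below 0 (median -0.38, and 0.01 over all genes tested). The interaction was -0.70 ± 0.10 for Vcl (log2, SE, adjusted p = 1.61e-05), -0.53 ± 0.11 for Cyr61 (adjusted p = 9.17e-04), -0.42 ± 0.09 for Amotl2 (adjusted p = 0.00142) and -0.38 ± 0.10 for Tpm1 (adjusted p = 0.00527). Ctgf lay at the threshold (-0.26 ± 0.10, adjusted p = 0.0495). Without the library of low depth, Vcl (-0.71), Cyr61 (-0.49), Amotl2 (-0.41) and Tpm1 (-0.35, adjusted p = 0.0151) still passed, and Ctgf did not (-0.24, adjusted p = 0.0970), against 13.8% of all genes lower and 11.4% higher. The other 5 genes did not pass with or without that library, at -0.33 for Ankrd1, -0.04 for Acta2, -0.17 for Tagln, -0.11 for Myl9 and -1.53 for Cnn1 without it, and the median of the 10 was then -0.34. Ctgf also failed without any one of Vehicle replicates 1 to 3, SR-3420 replicates 1 and 2, Lipase Inh. + Vehicle replicates 1 and 2 or Lipase Inh. + SR-3420 replicate 1 (-0.27 to -0.20, adjusted p from 0.0628 to 0.141). On total counts alone Tpm1 (-0.33, adjusted p = 0.0709) and Ctgf (-0.21, adjusted p = 0.246) did not pass, nor did they on total counts without Lars2 (-0.25, adjusted p = 0.0526, and -0.12, adjusted p = 0.338). None of the 10 genes passed both thresholds, which 3.82% of all genes did. Side by side, SR-3420 raised Amotl2 1.36-fold with inhibitors and 1.81-fold without, while Vcl was at 1.00-fold and 1.63-fold. Whether these 2 interactions differ from each other was not tested.

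**Figure D4:**
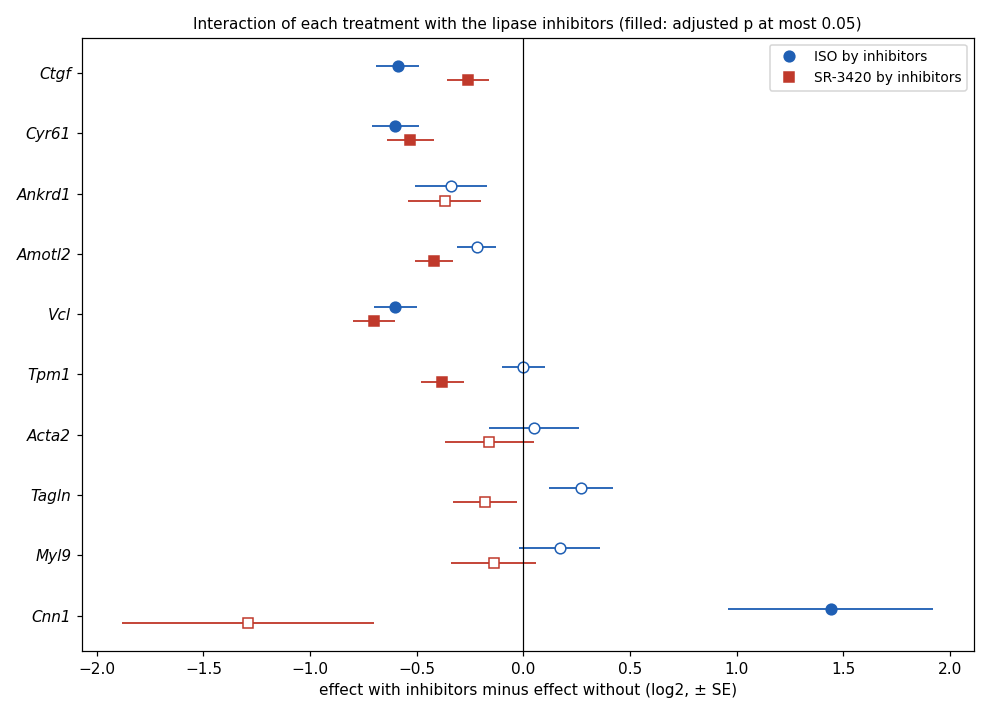
Interaction of each treatment with the lipase inhibitors (horizontal axis, difference of log2 fold changes ± SE, negative where the effect was lower with inhibitors) for the 10 genes, filled where the adjusted p is at most 0.05. Cyr61 and Vcl lie at or below -0.53 for both treatments, Tpm1 differs for SR-3420 and lies at 0.00 for ISO, and Cnn1 lies at 1.44 for ISO.

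Across the 18 libraries the 10 genes did not follow one pattern. Log2 CPM of Ctgf and Cyr61 had a Pearson correlation of 0.940, Amotl2 and Vcl of 0.845, Acta2 and Tagln of 0.823, and Tagln and Tpm1 of 0.816, whereas Ctgf had 0.500 with Acta2 and -0.219 with Cnn1. Outside the set, the 3 genes most like Ctgf, where the average log2 CPM was 3 or more, included Cebpg (r = 0.960) and Vgll3 (r = 0.946). Those most like Acta2 were Mcm2 (r = 0.896), H2-Q4 (r = 0.873) and Cdca5 (r = 0.868). Mcm2 and Cdca5 encode proteins of DNA replication and of sister chromatid cohesion. The 18 points share their groups and their library scaling, so these correlations are descriptions.

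Further targets of both routes were read from lists that hold none of the 10 genes. Of 20 further YAP targets tested, 1 rose and 11 fell with ISO (median log2 fold change -0.29), 8 rose and 5 fell with SR-3420 (0.07), and 0 rose and 14 fell with ISO after inhibitors (-0.49). Among all genes 26.8% rose and 25.0% fell with ISO, 26.0% and 25.4% with SR-3420, and 29.4% and 28.3% with ISO after inhibitors. Those past both thresholds of the study with ISO were Arhgef17, which encodes a guanine nucleotide exchange factor (-1.24 ± 0.08, SE, adjusted p = 5.12e-11), and Fjx1 (-1.08 ± 0.26, adjusted p = 0.00162). After inhibitors the largest effects of ISO were those on the stress gene Gadd45a (-2.46 ± 0.13, adjusted p = 6.9e-13), Fjx1 (-2.01 ± 0.28, adjusted p = 2.43e-06) and the phosphatase gene Ptpn14, whose product binds YAP (-1.97 ± 0.08, adjusted p = 1.6e-14). By total counts 13 of the 20 fell with ISO (median -0.60) and 16 with ISO after inhibitors (-0.71), where 49.4% and 42.1% of all genes fell (-0.33 and -0.24). These lists hold well-known targets and were chosen with results of these data known, so their counts are descriptions.

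Of 24 further SRF and MRTF targets, 11 rose and 1 fell with ISO (median 0.22), 17 rose and none fell with SR-3420 (0.40), and 9 rose and 5 fell with ISO after inhibitors (-0.04), beside the same shares of all genes. Thbs1, which encodes the matrix protein thrombospondin 1, had the largest effect of the list with ISO (1.12 ± 0.10, SE, adjusted p = 7.73e-09) and with SR-3420 (2.19 ± 0.11, adjusted p = 4.57e-13), and it fell with ISO after inhibitors (-1.10 ± 0.10, adjusted p = 7.39e-09). In that comparison Tpm4, a tropomyosin (1.49 ± 0.09, adjusted p = 5.42e-12), and Flna, the actin crosslinker filamin A (1.22 ± 0.07, adjusted p = 1.08e-12), rose, and Flna had a higher ISO effect with inhibitors (interaction 1.05 ± 0.09, adjusted p = 1.75e-08). By total counts the numbers with ISO became 4 higher and 4 lower (median -0.09) and those with SR-3420 became 11 and 1 (0.24), against 12.3% of all genes higher and 49.4% lower with ISO and 16% and 35.9% with SR-3420. With ISO after inhibitors they became 3 and 9 (-0.26), against 16.2% and 42.1%. The direction of this list's median with ISO thus depended on the scaling.

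Genes of the YAP and Hippo pathway itself were also read. Lats2, which fell with ISO, and Amotl1 are counted here and also among the further YAP targets. Of 21 YAP and Hippo components, 12 rose and 2 fell with ISO (median 0.28), 11 rose and 3 fell with SR-3420 (0.33), and 7 rose and 8 fell with ISO after inhibitors (0.09), where the shares of all genes were those given for the further YAP targets. Tead1 (1.17 ± 0.09, SE, adjusted p = 5.04e-10) and the scaffold gene Sav1 (1.11 ± 0.08, adjusted p = 7.87e-11) passed both thresholds with ISO, and Wwtr1, which encodes TAZ, did so with SR-3420 (1.08 ± 0.07, adjusted p = 2.01e-11). Wwtr1 also rose with ISO (0.74 ± 0.07) and fell with ISO after inhibitors (-0.26 ± 0.07, adjusted p = 0.00212). Srf and Yap1, named for their role with their values known, rose with ISO (0.37 ± 0.08 and 0.51 ± 0.07) and with SR-3420 (0.72 ± 0.08 and 0.43 ± 0.07), and neither passed in any comparison of a treatment with Lipase Inh. + Vehicle. The inhibitors alone moved none of the genes on any of these lists past the threshold. The direction of the median with ISO depended on the scaling, since with total counts alone 6 components rose and 4 fell (median -0.02), and so did that with ISO after inhibitors (4 rose and 9 fell, median -0.13).

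SRF also acts at immediate early genes, together with ternary complex factors in place of MRTFs. All 8 such targets tested rose with SR-3420 (median 2.62) and 6 rose with ISO (1.21), Egr1 by 4.69 ± 0.18 and 1.82 ± 0.17 (log2 fold change, SE, adjusted p = 1.55e-14 and 8.54e-09). Among all genes 26.0% rose with SR-3420 and 26.8% with ISO. With ISO after inhibitors 1 of the 8 rose and 2 fell (median -0.23), against 29.4% and 28.3% of all genes. By the interaction, 5 of the 8 had a lower ISO effect with inhibitors, against 16.6% of all genes. All 8 had a lower SR-3420 effect, against 14.8%. On total counts alone 5 of the 8 rose and 2 fell with ISO (median 0.9), against 12.3% and 49.4% of all genes. With ISO after inhibitors 1 rose and 4 fell on that scale (-0.45), against 16.2% and 42.1%. With TMM factors, all 10 cAMP-responsive genes rose with ISO both without inhibitors (median 3.43) and with them (2.41). Among them Nr4a1 rose by 4.89 ± 0.11 and 2.34 ± 0.11. With SR-3420, 6 of the 10 rose (1.17), so a rise was not particular to ISO. In the direct comparison all 10 were higher with ISO than with SR-3420 (median 2.29), against 15.8% of all genes. For each agent against its Vehicle group, the shares of all genes with TMM factors were those given for the 8 targets. Both lists were chosen with results of these data known, so their counts are descriptions and no check of the cAMP signal. The effects of ISO without inhibitors on the 10 SRF and YAP targets had estimates between -0.27 and 0.64.

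**Figure D5:**
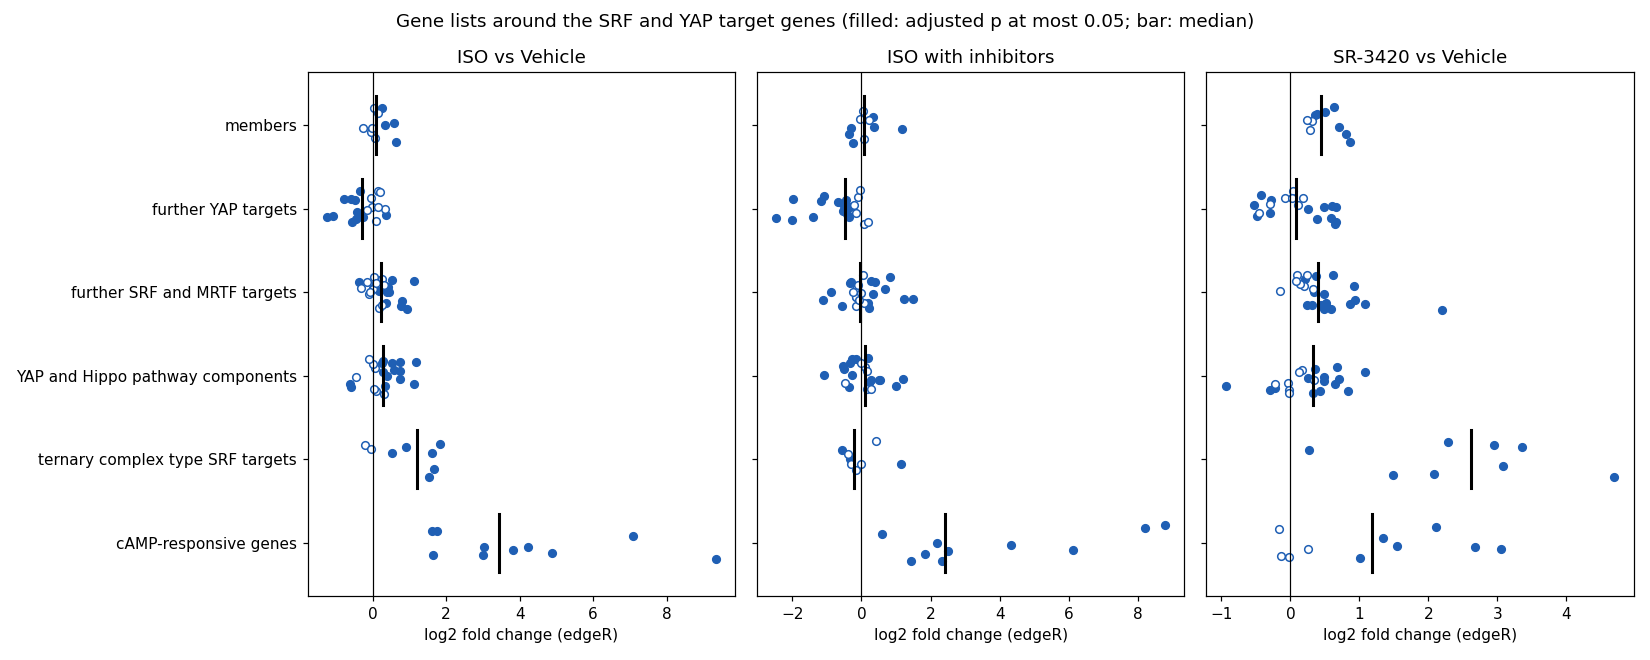
Log2 fold change (horizontal axis) of every tested gene of 6 lists in 3 comparisons; filled points passed at an adjusted p of at most 0.05, and the bar is the median of the list. The medians of further YAP targets lie at -0.29 with ISO and -0.49 with ISO after inhibitors, and that of the cAMP-responsive genes at 3.43 with ISO.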

How the data were processed

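RNA-seq was measured in 18 samples of differentiated BAT-LgT cells, grouped by their titles. Per the labels and the methods of the study, the authors aligned reads to mm9 with STAR 2.4.2a and summarised tags per gene with HOMER and iRNA-seq, keeping 1 read per position and length, which can compress differences of abundant genes. The deposited table holds raw counts, and whether strand and introns were used is not stated in the sources used here.

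Differences were tested with edgeR 4.0.16 under R 4.3.3, after filterByExpr (minimum count 10, minimum total 15) and TMM scaling, in 1 quasi-likelihood fit over 6 groups with Benjamini-Hochberg adjustment over 12156 genes. Calls by both thresholds also need an absolute log2 fold change of 1. Intervals of 95% use 12 residual degrees of freedom. Alternatives were DESeq2 1.42.0, RLE factors, total counts, other filters, fewer groups, a replicate block, thinning and leaving out libraries. The fit was tested on simulated data. Named by rule were the 10 genes, up to 3 genes past both thresholds per list and comparison, and the 3 genes most like Ctgf and Acta2. A gene, a promoter sequence and a gene list are not reported here. The members and lists were chosen with earlier results of these data known. Total counts were 4263755 to 21205032 per library, and precision is lowest for Cnn1. Sequences come from the mm9 genome and overlapping genes from the GENCODE annotation of that build.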

Additional observations from a re-analysis of the deposited data

Results flagged for a closer look

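The effects of ISO differed between cells with and without lipase inhibitors, by the interaction test at an adjusted p of at most 0.05, for Ctgf (log2 -0.59), Cyr61 (-0.60), Vcl (-0.60) and Cnn1 (1.44). The effects of SR-3420 differed in the same way for Vcl (-0.70), Cyr61 (-0.53), Amotl2 (-0.42), Tpm1 (-0.38) and Ctgf (-0.26). Both sets of interactions share the samples of Vehicle and of Lipase Inh. + Vehicle.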

How the results depend on the processing

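Settings other than the scaling changed few calls among the 10 genes. RLE factors, and library sizes without Lars2 (a setting chosen after seeing the data), changed none of 80 member results each. Of the results for single genes, 5 were lost and 1 gained with no filter, 1 was lost with a filter at a CPM of 1, 3 were lost and 3 gained when only the groups compared were fitted, and 5 were lost and 2 gained after thinning. With DESeq2, 1 gene was lower with the inhibitors alone, and the ISO interaction had 0 genes past both thresholds and 0 higher. With no filter on low counts the ISO interaction likewise had 0 past both thresholds and 0 higher. After thinning to the smallest total, Cnn1 was too low for the filter on low counts and was not tested. ISO with inhibitors and the ISO interaction then each had 0 past both thresholds, without the single gene that had passed them. On total counts alone, ISO had 2 higher and 2 lower, ISO with inhibitors 0 past both thresholds and 1 higher, SR-3420 with inhibitors 1 higher, the SR-3420 interaction 3 lower (also without Lars2), and Cyr61 with ISO reversed to -0.05. On that scale 12.3% of all genes were higher and 49.4% lower with ISO, and 16.2% were higher with ISO after inhibitors. The shares were 0.938% higher for SR-3420 with inhibitors and 10.2% lower for the SR-3420 interaction (10.1% without Lars2). Over all genes that scaling turned 612 called higher and 495 lower with ISO into 339 and 1191, 482 and 288 with SR-3420 into 335 and 501, 660 and 928 for ISO with inhibitors into 439 and 1436, 26 and 10 for SR-3420 with inhibitors into 16 and 11, 265 and 573 for the ISO interaction into 351 and 492, 170 and 294 for the SR-3420 interaction into 225 and 238, and 149 and 99 for ISO against SR-3420 into 108 and 178. The cause was not tested.

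When single libraries were left out, the ISO interaction had 0 to 1 genes past both thresholds and 0 to 2 higher, and the inhibitors alone had 0 to 1 lower. No source used here says what a replicate number marks, but the library names run in sequence through all groups of number 1, then 2, then 3. Deviations from the group means correlated at -0.0118 on average for number 1, 0.15 for number 2, 0.19 for number 3 and -0.0548 between numbers, with 1, 12 and 15 of 15 pairs above 0.1, and 12 of 18 samples correlated best with their own number. With the replicate block, 1 gene was lower with the inhibitors alone (Tagln, -0.37), Acta2 passed with SR-3420 (0.32, adjusted p = 0.0039 by edgeR) and in ISO against SR-3420 (-0.29, adjusted p = 0.0154), and no call was lost. Cnn1, at 1 to 26 counts per library, is the gene that depth limits most, with an SE of 0.31 to 0.59 on the log2 scale.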
